A study of Mus musculus with 6 samples.

Results

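Conventional CD4 T cells were 773 of the 33168 cell barcodes deposited for liver non-parenchymal cells of mice with diet-induced nonalcoholic steatohepatitis (NASH). The cells were chosen by measured transcripts. From 27544 cells with fewer than 5000 genes and less than 5% mitochondrial transcripts, those were taken that held at least 2 unique molecular identifiers (UMIs, each marking 1 captured transcript) of Cd3d, Cd3e and Cd3g together and at least 1 of Cd4. They held none of Cd8a, Cd8b1, Foxp3, Zbtb16 or Trdc and at most 1 of Cd79a, so that CD8, regulatory, NKT-like and gamma delta T cells and B cells were left out as far as their transcripts were captured. Because these genes defined the cells, their levels are not findings. The gate has a low threshold: cells with exactly 1 Cd4 UMI made up 49.6% to 81.5% of the gated cells of a library, and 0 to 16 cells per library had exactly 2 Cd3 UMIs. Just outside it, 0 to 16 cells per library had 1 Cd3 UMI and were otherwise like the gated cells.

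The mice were male C57BL/6J, aged 8 weeks at the start, and all of them received a high-fat diet for 24 weeks. In the last 8 weeks they were given DMSO vehicle (3 libraries) or ginkgetin at 10 mg/kg/day (3 libraries) intragastrically. Ginkgetin is a biflavonoid of Ginkgo biloba leaves. No chow-fed library was analysed here, so both groups share the diet, and the labels do not say how many mice went into a library or whether replicates were separate animals, so that p-values measure only the spread between these libraries.

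Conventional CD4 T cells recognise antigen on MHC class II. They leave the thymus as naive cells that circulate through lymphoid organs by means of homing receptors such as CCR7. After activation they help B cells, macrophages and CD8 T cells through CD40 ligand and cytokines, and part of them enter tissues such as the liver with the help of chemokine receptors such as CXCR3 and CXCR6.

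Vehicle libraries 1 to 3 contributed 140, 74 and 135 CD4 cells and ginkgetin libraries 1 to 3 contributed 207, 92 and 125. The median CD4 cell held 3184, 2595.5 and 4175 UMIs in the vehicle libraries and 2851, 3001 and 5983 in the ginkgetin libraries. Replicate 3 of both groups stood apart. It shared 0 or 1 barcodes with any replicate 1 or 2, against 10 to 85 between the other pairs of libraries, and of 19349 gene symbols 946 had UMIs in replicates 1 and 2 only and 2253 in replicate 3 only. Only the 16150 symbols found in both sets were tested, and for this reason Trac, the T cell receptor alpha constant gene, was not. Of the CD4 cells' barcodes, 0 to 5 per library occurred in another library.

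The marker genes set the cells apart from CD8 T cells and B cells, but not from every other T cell class. Cd40lg encodes CD40 ligand, Icos and Cd28 encode costimulatory receptors. After thinning each cell to 1000 UMIs, Cd40lg was found in 8.80% of CD4 cells, 0.98% of CD8 T cells and 0.00% of B cells, and the unthinned share of CD4 cells was 31.6%. Icos was found in 15.4% of thinned CD4 cells, 3.63% of CD8 T cells and 0.08% of B cells, and Cd28 in 34.7%, 20.2% and 2.26%. T cells with a Zbtb16 UMI carried them about as often, at 8.68% for Cd40lg, 17.7% for Icos and 33.3% for Cd28, and regulatory T cells carried Icos more often (29.4%) and Cd40lg (3.36%) and Cd28 (21.0%) less often in these pooled shares, which were not tested. No CD4 cell was under 1000 UMIs. Other T cell classes may not have been fully removed by the gate. Ikzf2 encodes Helios and is abundant in regulatory T cells. It had a UMI in 4.35% to 17.8% of the thinned CD4 cells of a library and in 10.1% to 32.6% without thinning. Whether the cells with an Ikzf2 UMI were regulatory T cells was not tested. Klrb1c, which encodes the NKT and NK cell receptor NK1.1, had a UMI in 1.43%, 0.00% and 0.00% of thinned CD4 cells of the vehicle libraries and in 2.42%, 4.35% and 13.6% of those of the ginkgetin libraries. Without thinning the Klrb1c shares were 2.86%, 0.00% and 0.74% against 4.35%, 19.6% and 38.4%. In the T cells that the gate left out for a Zbtb16 UMI, the Klrb1c share after thinning was 0.00% to 8.57% in the vehicle libraries and 13.95% to 28.0% in the ginkgetin libraries.

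Whether ginkgetin changed the abundance of the cells was addressed by their share per library. CD4 cells were 2.33%, 2.22% and 3.26% of kept cells in the vehicle libraries and 5.93%, 1.33% and 3.43% in the ginkgetin libraries. The 2 groups overlapped, and both the highest and the lowest value belonged to ginkgetin-treated mice. The means were 2.60% ± 0.575 (SD, n = 3) and 3.56% ± 2.30 (SD, n = 3), with p = 0.6 in a 2-sided exact permutation test, whose smallest possible p with 3 against 3 libraries is 0.10. Ginkgetin library 1 had a 95% Wilson interval of 5.19% to 6.76% and ginkgetin library 2 of 1.09% to 1.63%, which cover counting error only. As a share of T cells the values were 12.5% ± 2.72 and 14.1% ± 4.30 (exact permutation test, p = 0.8, n = 3 per group). That difference of 1.65 percentage points turned to -1.14 without cells with a Klrb1c UMI and to -0.13 with a Cd4 minimum of 2 UMIs. The ginkgetin-minus-vehicle difference in the share of kept cells was 1.36 percentage points in replicates 1 and 2 and 0.168 in replicate 3. Over all libraries it was 0.960, without ginkgetin library 1 it was -0.222, and with cells of 250 to 5000 UMIs it was -1.89. With the gate applied to thinned cells, CD4 cells were 0.715%, 0.390% and 0.972% of kept cells in the vehicle libraries. In the ginkgetin libraries they were 1.52%, 0.361% and 0.595%, so that the groups overlapped and replicate 3 changed direction. As a share of T cells they were 4.51%, 2.84% and 6.43% against 6.71%, 4.80% and 4.40%, again with replicate 3 reversed. That gate held 13 to 53 cells per library.

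**Figure D1:**
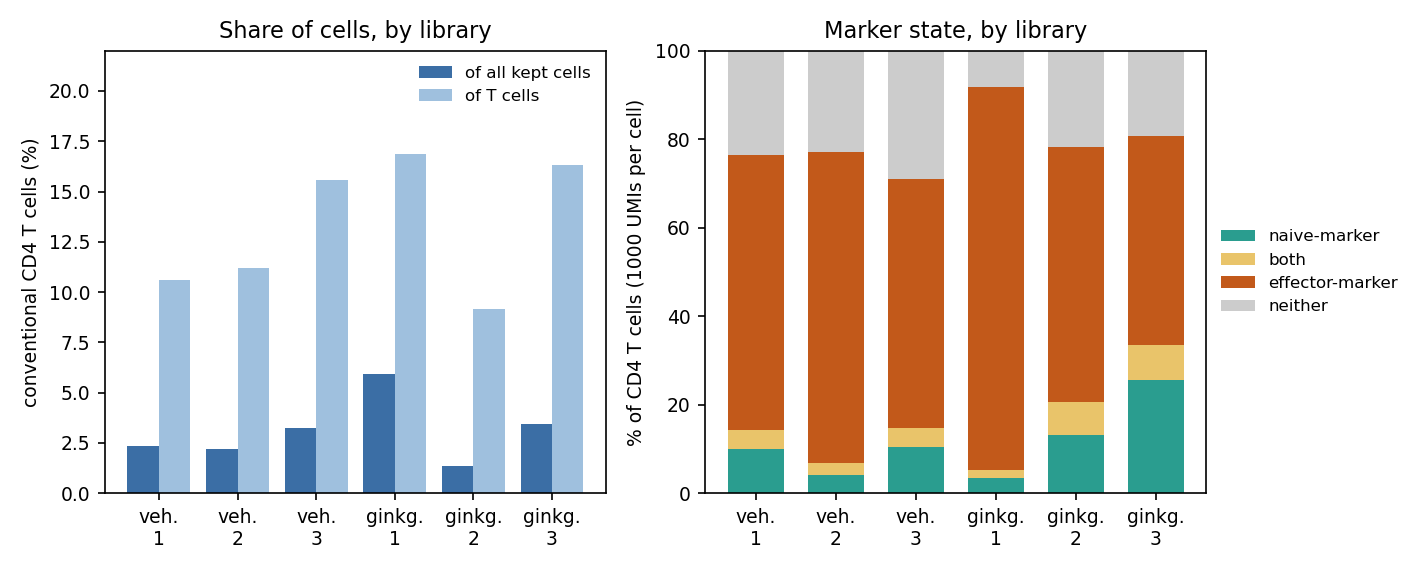
Left, conventional CD4 T cells as a percentage of kept cells and of T cells in each of the 6 libraries (veh., vehicle; ginkg., ginkgetin). Right, percentage of CD4 cells, thinned to 1000 UMIs per cell, by marker state. Ginkgetin library 1 has the largest share of kept cells (5.93%) and of effector-marker cells (86.5%), and ginkgetin library 3 the largest share of naive-marker cells (25.6%).

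In 5 of 6 libraries more than 50% of CD4 cells carried transcripts of effector or tissue-homing cells and none of the naive set. A cell was called effector-marker when, after thinning, it had a UMI of Cxcr6, Cxcr3, Ccl5 or Nkg7 and none of a set of naive-cell genes that included Ccr7 and Lef1, and naive-marker in the reverse case. These are ranges cut from a few UMIs, not cell types. Effector-marker cells were 62.1%, 70.3% and 56.3% of CD4 cells in the vehicle libraries and 86.5%, 57.6% and 47.2% in the ginkgetin libraries. Naive-marker cells were 10.0%, 4.05% and 10.4% against 3.38%, 13.04% and 25.6%. In both states the ginkgetin libraries spanned a wider range than the vehicle libraries and overlapped them, with means of 62.9% ± 7.02 and 63.8% ± 20.3 for effector-marker cells (exact permutation test, p = 0.9, n = 3 per group) and of 8.14% ± 3.54 and 14.01% ± 11.1 for naive-marker cells (exact p = 0.5, n = 3 per group). The effector-marker difference of 0.858 percentage points became -10.5 without ginkgetin library 1 and -2.45 without vehicle library 3. In ginkgetin library 3, without cells with a Klrb1c UMI, the effector-marker share was 27.3% and the naive-marker share 40.3%, and with cells of 250 to 5000 UMIs (28 cells) the effector-marker share was 28.6%. Cells with neither set of markers were 25.1% ± 3.26 in the vehicle libraries and 16.4% ± 7.19 in the ginkgetin libraries. For them the groups did not overlap, with an exact p = 0.1 that is the smallest the design allows and an adjusted p of 0.4 over the 4 states. The groups did overlap without thinning, without a cell filter, with cells of 250 to 5000 UMIs and without cells with a Klrb1c UMI. The difference of -8.76 percentage points was -2.27 with the UMI limits and -3.8 without the Klrb1c cells (exact permutation test, p = 0.9 in both, n = 3 per group).

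Genes that had no part in this division differed between the 2 states within libraries, given here as a description over the 4 libraries with at least 10 cells of each state (vehicle 1 and 3, ginkgetin 2 and 3). Levels are CPM, a library's UMIs of a gene scaled to a total of 1000000. Tcf7, a transcription factor of naive and memory T cells, was at 594 ± 349 CPM (SD, n = 4) in naive-marker and 116 ± 12.4 in effector-marker cells. Klf2, which promotes recirculation, was at 1122 ± 647 and 282 ± 116 CPM. Igfbp4, Dapl1 and Satb1, all high in naive T cells, were likewise higher in naive-marker cells in 4 of 4 libraries. In the opposite direction, the adhesion receptor Cd44 was at 66.9 ± 32.4 and 225 ± 41.5 CPM, and the integrin chain Itgb1 at 148 ± 78.1 and 362 ± 60.2 CPM. Ifng, the Th1 cytokine interferon gamma, was at 0 in the naive-marker cells of all 4 libraries and at 222 ± 113 CPM in effector-marker cells. Cd40lg was at 53.6 ± 11.3 CPM in naive-marker and 116 ± 20.6 CPM in effector-marker cells, higher in effector-marker cells in 4 of 4 libraries. The naive-marker sums came from 14, 14, 12 and 32 cells, so that low levels in them, Cd40lg included, rest on few UMIs. Cd69 and Ctla4 were higher in each state in 2 of 4 libraries. Leaving out cells with a Klrb1c UMI took the effector-marker cells of ginkgetin library 3 from 59 to 21 and those of ginkgetin library 2 from 53 to 37. Without them Tcf7 was at 606 ± 370 and 146 ± 69.2 CPM, Klf2 at 1137 ± 663 and 349 ± 52.7, Cd44 at 65.8 ± 34.2 and 254 ± 98.0, and Ifng at 0 and 231 ± 120, and each gene named here was higher in the same state in as many libraries as with them.

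To see what set the CD4 cells apart from the CD8 T cells of the same livers, counts were summed per library and type and compared with edgeR's quasi-likelihood test with library as a block. Calls needed both a change of more than 2-fold and an adjusted p (Benjamini-Hochberg) below 0.05. CD4 cells had 80 genes called higher (1.21%) and 70 called lower (1.06%) out of 6585, the gate genes Cd4, Cd8a and Cd8b1 among them. Higher genes included Cd40lg, Icos and Tnfrsf4, and lower genes included most of the cytotoxic and chemokine list.

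In the list of costimulation and activation genes, 5 of 12 tested members were called higher (Cd40lg, Cd5, Icos, Tnfrsf18 and Tnfrsf4) and 0 lower, while 3 were lower at an unadjusted p under 0.05, the receptors Cd27 (-0.55 ± 0.14), Cd69 (-0.38 ± 0.10) and Tnfrsf9 (-0.96 ± 0.39). Cd40lg ranged from 80.8 through a median of 112 to 129 CPM in the 6 CD4 sums and from 1.54 through 5.07 to 27.1 in the CD8 sums. The ranges did not overlap, and the log2 difference was 3.65 ± 0.31 (SE, edgeR adjusted p = 3.22e-06), higher in CD4 cells in 6 of 6 libraries. Tnfrsf4, which encodes OX40, ranged from 28.6 through 54.1 to 258 CPM in CD4 cells and from 0.705 through 2.88 to 10.4 CPM in CD8 cells (log2 difference 4.43 ± 0.34, edgeR adjusted p = 1.11e-06). Icos ranged from 153 through 182 to 276 CPM and from 28.9 through 39.9 to 48.9 CPM (2.17 ± 0.10, edgeR adjusted p = 2.20e-09). Cd28 was higher in 6 of 6 libraries with an edgeR adjusted p of 0.00222, but its log2 difference of 0.81 was under the threshold of fold.

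Among transcription factors, Zbtb7b, which encodes ThPOK and directs thymocytes to the CD4 lineage, ranged from 39.2 through 52.6 to 90.9 CPM in CD4 cells and from 5.97 through 7.74 to 13.3 CPM in CD8 cells (log2 difference 2.71 ± 0.18, edgeR adjusted p = 2.80e-07). Runx3, its counterpart in CD8 cells, was lower by 1.09 ± 0.09 (log2, SE; edgeR adjusted p = 3.45e-06) in 6 of 6 libraries. Maf (1.97 ± 0.20) and Rora (1.32 ± 0.13), transcription factors of helper T cell subsets, were called higher in CD4 cells. Gata3, the Th2 regulator, differed by 0.94 ± 0.11 (edgeR adjusted p = 6.45e-05), just under the threshold of fold. Of the follicular helper list, Izumo1r, the folate receptor 4 gene, and Slamf6 were called higher and none lower of 4 tested. Socs2, Tbc1d4, Podnl1 and Tmem64 were the other genes with the largest positive differences, with log2 values of 2.56, 2.39, 2.30 and 2.20. Ctla4, the inhibitory receptor that regulatory T cells also carry, was higher by 1.65 ± 0.17 (edgeR adjusted p = 2.02e-05).

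In the list of cytotoxic genes and chemokines, 12 of 13 tested members were called lower in CD4 cells and 0 higher, with a median log2 difference of -2.56, while the median of all genes tested was 0.00. Gzma, which encodes granzyme A, ranged from 0 through 11.2 to 80.5 CPM in CD4 cells and from 187 through 663 to 1471 CPM in CD8 cells (log2 difference -5.39 ± 0.42, edgeR adjusted p = 1.24e-06). Gzmb ranged from 17.0 through 55.6 to 132 CPM and from 116 through 689 to 1099 CPM (-3.25 ± 0.34, edgeR adjusted p = 1.90e-05). The highest CD4 and the lowest CD8 value of Gzmb overlapped, whereas those of Gzma did not. Ccl5 was detected widely in both types: it ranged from 1370 through 3246 to 5874 CPM in CD4 cells and from 9046 through 20024 to 35779 CPM in CD8 cells, and it had a UMI in 57.7% of CD4 cells against 88.4% of CD8 cells and 8.54% of B cells at 1000 UMIs per cell. Ccl3, Ccl4, Eomes, Klrd1 and Cd7 were lower by 3.39, 3.85, 3.30, 2.56 and 2.52 on the log2 scale. Nkg7 was lower by 1.65 ± 0.16 (edgeR adjusted p = 1.09e-05) in 6 of 6 libraries.

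Several short lists held no called gene, which at background shares of 1.21% and 1.06% does not set them apart from other genes. At an unadjusted p under 0.05, 9.49% of all genes tested were higher and 8.93% lower in CD4 cells. Of 14 tested T cell receptor signalling genes 4 were higher and 2 lower at that threshold. Of 12 immediate early genes 4 were higher and 0 lower, of 10 heat shock genes 0 higher and 3 lower, and of 9 cell cycle genes 0 in either direction. Ifng differed by -0.05 ± 0.19 (edgeR adjusted p = 0.940) and Tbx21, the Th1 regulator, by -0.15 ± 0.16 (edgeR adjusted p = 0.702). Markers of macrophages moved with the comparison: of 8 tested members of that list C1qb and C1qc were called higher in CD4 cells, with log2 differences of 1.48 and 1.45, and vehicle library 1 alone had C1qb at 587 CPM in its CD4 cells against 9.96 to 93.2 CPM in the others. Their part in the comparison was not tested beyond leaving out the cells concerned: without CD4 and CD8 cells with at least 1% of UMIs from other lineages' markers, 156 genes were called, of which 139 were among the 150. Of 7 tested members of the natural killer and innate lymphoid cell list 4 were called lower in CD4 cells, Eomes and Cd7 among them, and 0 higher (median -2.15). In the dendritic cell list 1 of 3 and in the neutrophil list 1 of 2 tested members were called lower.

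Of the cytokines that define helper subsets, Ifng was at 55.5 to 225 CPM in the 6 CD4 sums and had a UMI in 25.7% of CD4 cells without thinning. Il4 was at 8.16 to 61.5 CPM in CD4 cells and at 0 to 4.16 CPM in CD8 cells. Il21, a follicular helper cytokine, was at 7.47 to 35.9 CPM and at 0 to 4.23 CPM. Il17a was at 11.5 CPM in vehicle library 1, at 117 CPM in vehicle library 3 and at 0 in the other 4 libraries, and at 0 in all CD8 sums. Bcl6, the follicular helper regulator, reached 38.1 CPM at most and did not pass the filter on low counts for the comparison of the groups.

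Against regulatory T cells, defined by at least 1 Foxp3 UMI, the CD4 cells had higher levels of Ifng, Tnf, Ccl5, Nkg7 and Cxcr6. Only 120 regulatory T cells passed their gate, and 4 libraries had at least 10 (vehicle 1 and 3, ginkgetin 2 and 3, with 31, 51, 10 and 13 cells), so that this comparison rests on 4 pairs of sums. With library as block, edgeR called 45 genes higher (1.41%) and 37 lower (1.16%) in CD4 cells out of 3183.

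Ifng was at 192, 225, 55.5 and 116 CPM in the CD4 sums and at 8.71, 4.90, 0 and 0 CPM in the regulatory T cell sums (log2 difference 5.33 ± 0.48, edgeR adjusted p = 1.96e-05). The types did not overlap. Cxcr6, a receptor that retains T cells in liver sinusoids, was at 287, 483, 225 and 472 CPM against 52.3, 29.4, 0 and 9.36 CPM (3.91 ± 0.37, edgeR adjusted p = 2.48e-05). Cd40lg was at 80.8, 121, 117 and 101 CPM against 0, 29.4, 0 and 0 CPM (3.14 ± 0.53, edgeR adjusted p = 0.00320). Of the liver homing and residency list, 4 of 10 tested members were called higher, among them Cxcr6, Itgb1 and Rgs1, and 0 lower. The list as a whole went both ways: 5 members were above 0 and 5 below, Prdm1 (-0.85 ± 0.35) and S100a6 (-0.55 ± 0.25) were lower at an unadjusted p under 0.05, and its summed level was 5902, 5880, 4724 and 3900 CPM in CD4 sums and 6674, 5521, 3551 and 8557 CPM in regulatory T cell sums, higher in each type in 2 of 4 libraries. Of the naive and central memory list 4 of 10 (Igfbp4, Satb1, Tcf7 and Txk) were called higher and 0 lower, with 5 higher and 1 lower at an unadjusted p under 0.05, beside 8.77% and 5.53% of all genes tested. Ccl5, Nkg7 and Ctsw of the cytotoxic list, Ifng and Tnf of the Th1 list and the signalling gene Themis (3.09 ± 0.43) were called higher, as were St3gal6, Pde3b and Tnfsf8 with log2 differences of 3.32, 3.24 and 2.88.

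Among the genes lower in CD4 cells were several that regulatory T cells are known for. Ikzf2 was at 277, 266, 144 and 64.8 CPM in CD4 sums and at 1455, 1545, 1208 and 1189 CPM in regulatory T cell sums (log2 difference -2.86 ± 0.25, edgeR adjusted p = 1.96e-05). Il2ra, the high-affinity interleukin 2 receptor chain, was at 19.2, 29.4, 22.8 and 37.4 CPM against 69.7, 137, 146 and 197 CPM (-2.14 ± 0.29, edgeR adjusted p = 0.000512). Ctla4 and Tnfrsf4 were lower by 1.98 ± 0.36 and 2.16 ± 0.27 on the log2 scale, so that both were between the levels of CD8 and regulatory T cells in these comparisons. Arl5c, Itgav, Ass1 and Arl5a were lower by 2.12, 1.95, 1.80 and 1.75. Foxp3 itself is a gate gene and is left out.

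**Figure D2:**
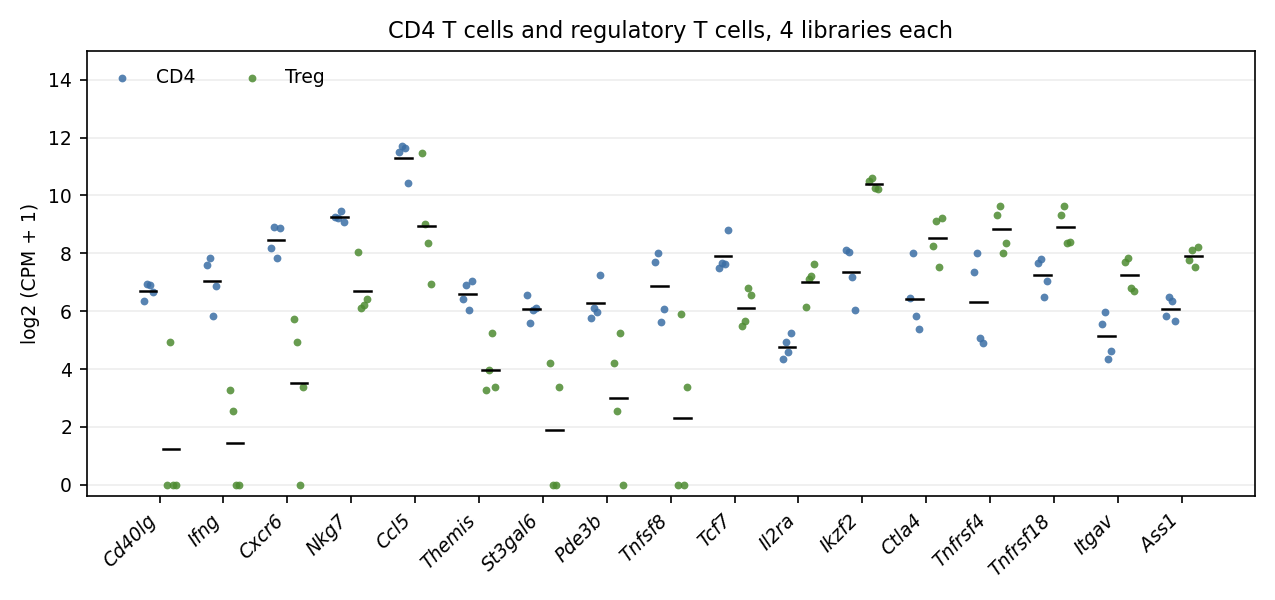
Level of 17 genes as log2 (CPM + 1) in CD4 cells (blue) and regulatory T cells (Treg, green) of the 4 libraries with at least 10 of each, with a bar for the mean. Ifng and Cxcr6 lie higher in all CD4 sums and Ikzf2 and Il2ra higher in all regulatory T cell sums.

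The comparison of ginkgetin with vehicle inside CD4 cells asked which genes differed with treatment. At these thresholds 0 of 5496 genes (0%) were called by edgeR, and the smallest adjusted p was 0.0672, for Hspa1a. At an unadjusted p under 0.05, 180 genes (3.28%) were higher and 230 (4.18%) lower in the ginkgetin libraries, and for 706 genes (12.8%) the 2 groups of libraries did not overlap. DESeq2 on the same sums called 8 genes (0.146%), all lower, and edgeR with the barcode set, which separates replicate 3 from replicates 1 and 2, as a block called 17 (0.309%), of which 16 were lower. The values below are therefore given library by library.

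The gene with the lowest p, Hspa1a, and its neighbour Hspa1b encode the stress-inducible chaperone HSP70. They are near-identical copies, and reads may be divided between them in ways that the counting does not show, so that they are best read together. Their promoters, from RefSeq (GRCm38.p6) and 250 bases before to 50 after the gene start, are shown because both genes were lower in all 3 ginkgetin libraries than in any vehicle library. They lie on the minus strand at chr17:34972107-34972406 (Hspa1a) and chr17:34959189-34959488 (Hspa1b), run 5′ to 3′, and differ at 4 of 300 bases. Capitals mark GAANNTTC, a core of the element bound by heat shock factors, searched on both strands (it is its own reverse complement):
Hspa1a: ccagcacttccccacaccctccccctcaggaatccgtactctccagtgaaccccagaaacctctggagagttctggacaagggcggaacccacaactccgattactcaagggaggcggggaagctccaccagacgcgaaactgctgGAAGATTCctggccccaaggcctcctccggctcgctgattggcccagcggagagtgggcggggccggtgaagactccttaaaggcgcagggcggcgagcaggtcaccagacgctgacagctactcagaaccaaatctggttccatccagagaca
Hspa1b: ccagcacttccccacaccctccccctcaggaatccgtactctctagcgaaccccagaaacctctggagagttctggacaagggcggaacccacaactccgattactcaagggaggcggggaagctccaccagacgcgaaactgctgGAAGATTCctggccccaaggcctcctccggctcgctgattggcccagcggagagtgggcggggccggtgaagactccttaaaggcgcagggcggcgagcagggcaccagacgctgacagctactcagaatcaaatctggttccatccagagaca
Each holds 1 match, which begins 104 bases before the gene start, and 7.86% of 32851 promoters of this length hold 1 or more. A match is a description and not a site that is known to be used here.

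Hspa1a was at 748, 538 and 388 CPM in the CD4 cells of the vehicle libraries and at 41.6, 3.26 and 27.4 CPM in those of the ginkgetin libraries. The groups did not overlap, and the log2 difference was -4.38 ± 0.57 (SE, edgeR adjusted p = 0.0672, DESeq2 adjusted p = 8.90e-14, and edgeR adjusted p = 0.00180 when the barcode set was a block). Hspa1b was at 248, 208 and 426 CPM against 44.2, 3.26 and 47.3 CPM, a log2 difference of -3.06 ± 0.53 (edgeR adjusted p = 0.160, and 0.0119 when the barcode set was a block). All 10 tested genes of the heat shock list had a negative difference and 7 were at an unadjusted p under 0.05, with a median log2 difference of -1.07 beside 0.02 for all genes tested. The summed level of the list was 8352, 8667 and 6924 CPM in the vehicle libraries and 5015, 2336 and 3553 CPM in the ginkgetin libraries. Hspa8 and Hsp90aa1, chaperones also made without stress, differed by -1.10 ± 0.36 and -1.03 ± 0.43. The same genes were low in the other T cells of the same libraries: in CD8 cells Hspa1a was at 669, 852 and 335 CPM against 46.1, 12.7 and 44.9 CPM, and the test of a difference between the treatment effects in CD4 and CD8 cells gave -0.34 (log2; edgeR adjusted p = 0.959).  Of the 12 immediate early genes, 10 had a negative difference and 4 were at an unadjusted p under 0.05 (median -0.57), with Jun at 217, 165 and 285 CPM against 55.5, 62.0 and 141 CPM.

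Of the receptors and ligands of the tumour necrosis factor family, Tnfsf8, which encodes CD30 ligand, was at 208, 165 and 258 CPM in the vehicle libraries and at 34.1, 48.9 and 66.0 CPM in the ginkgetin libraries. No ginkgetin value reached the lowest vehicle value (log2 difference -2.05 ± 0.31, edgeR adjusted p = 0.139, DESeq2 adjusted p = 0.00111, and edgeR adjusted p = 0.0119 when the barcode set was a block). In CD8 cells Tnfsf8 was at 43.9, 23.9 and 41.5 CPM against 27.1, 33.1 and 42.4 CPM. The difference between the 2 treatment effects was -1.94 (log2; SE 0.24, edgeR adjusted p = 0.00422), and it was the only gene called of 7690 (0.013%) in the test of a treatment effect that differs between CD4 and CD8 cells. It was not called with cells of 250 to 5000 UMIs (-1.90) or in replicates 1 and 2 only (-2.04). Tnfrsf4 was at 162, 67.8 and 258 CPM against 40.4, 32.6 and 28.6 CPM in CD4 cells (-2.20 ± 0.43, edgeR adjusted p = 0.234, and 0.0423 when the barcode set was a block). Of the 12 tested costimulation genes, 4 were lower at an unadjusted p under 0.05 and 0 higher (median -0.36). The summed list overlapped between the groups, at 1902, 2234 and 2548 CPM against 1559, 1328 and 2568 CPM, with ginkgetin library 3 the highest. Cd40lg did not separate the groups, at 80.8, 106 and 121 CPM against 129, 117 and 101 CPM, with a 95% interval of its log2 difference from -0.34 to 0.84. The interval is a normal approximation from the SE and may be too narrow with 3 libraries a group.

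Pdcd1, the gene of the inhibitory receptor PD-1, was at 67.3, 50.9 and 96.2 CPM in the vehicle libraries and at 5.05, 19.6 and 13.7 CPM in the ginkgetin libraries. The groups did not overlap (log2 difference -2.59 ± 0.47, edgeR adjusted p = 0.160, DESeq2 adjusted p = 0.0105, and edgeR adjusted p = 0.0370 when the barcode set was a block). At 1000 UMIs per cell it had a UMI in 5.93% ± 0.66 of CD4 cells against 0.52% ± 0.54 (exact permutation test, p = 0.1, n = 3 per group), and 0.04% of B cells had one. In CD8 cells it was at 92.7, 133 and 65.7 CPM against 35.3, 1.41 and 4.43 CPM. Of the 7 tested inhibitory receptors 6 had a negative difference, with a median of -0.89, Ctla4 among them (-1.21 ± 0.45, edgeR adjusted p = 0.607). Cd160 was the exception, at 9.62, 76.3 and 13.05 CPM against 71.9, 55.5 and 102 CPM.

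Some genes that are abundant in regulatory T cells had lower levels in the ginkgetin libraries, with 0 called by edgeR. Ikzf2 was at 277, 161 and 266 CPM against 63.1, 144 and 64.8 CPM (log2 difference -1.33 ± 0.42, edgeR adjusted p = 0.546), Izumo1r at 217, 182 and 137 CPM against 64.3, 81.6 and 83.4 CPM, and Tnfrsf18 differed by -0.79 ± 0.32. Il2ra did not follow, at 19.2, 25.4 and 29.4 CPM against 1.26, 22.8 and 37.4 CPM. The number of cells that passed the whole regulatory T cell gate, a Foxp3 UMI included, was 31, 7 and 51 in the vehicle libraries and 8, 10 and 13 in the ginkgetin libraries. These libraries held 1322, 660 and 866 T cells and 1226, 1004 and 767 T cells. A regulatory T cell in which no Foxp3 transcript was captured can pass the CD4 gate. The part of such cells in the values of Ikzf2, Izumo1r, Tnfrsf18, Tnfrsf4, Ctla4 and Pdcd1 was not tested.

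Of the 9 tested cytotoxic and chemokine genes 6 had a negative and 3 a positive difference, and 3 were lower (Gzmk, Ccl3 and Ccl4) and 1 higher (Gzmb) at an unadjusted p under 0.05. Gzmk was at 48.1, 59.3 and 96.2 CPM in the vehicle libraries and at 21.4, 3.26 and 2.49 CPM in the ginkgetin libraries (-2.66 ± 0.65, edgeR adjusted p = 0.430), with the same order in CD8 cells (277, 310 and 235 CPM against 85.8, 21.8 and 35.4 CPM). Gzmb was at 46.2, 17.0 and 53.8 CPM against 132, 91.4 and 57.3 CPM (1.28 ± 0.44, edgeR adjusted p = 0.591). Neither was called.

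Of the 11 tested naive and central memory genes, 9 had a positive difference and 3 were at an unadjusted p under 0.05, with a median of 1.04 and with 0 called. The summed level of the list overlapped between the groups, at 1319, 1204 and 2045 CPM in the vehicle libraries and 738, 1997 and 3509 CPM in the ginkgetin libraries, and ginkgetin library 1 was below every vehicle library. Ccr7, the lymph node homing receptor, was at 17.3, 21.2 and 30.99 CPM against 23.97, 75.0 and 181 CPM (1.98 ± 0.60, edgeR adjusted p = 0.546). Ginkgetin library 1 was within the range of the vehicle libraries, and ginkgetin libraries 2 and 3 were above it. The same libraries had the largest shares of naive-marker cells, a state that Ccr7 helps to define. In CD8 cells Ccr7 was at 20.004, 12.5 and 58.8 CPM against 37.5, 130 and 212 CPM, with ginkgetin library 1 again within the vehicle range.

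Surface genes of activation were compared as shares of cells too. At 1000 UMIs per cell, the shares of CD4 cells with a UMI did not overlap between the groups for 4 of 25 fixed genes (16%), near the 12.8% of all tested genes whose levels did not overlap, so that the count is no result about these genes. Cd44 was found in 21.6% ± 2.39 against 14.5% ± 3.05, Cd69 in 15.5% ± 2.61 against 9.35% ± 3.46, and Il7r, the interleukin 7 receptor, in 29.6% ± 3.97 against 23.4% ± 4.02. Pdcd1 was the fourth. Each gave p = 0.1 in the exact permutation test (n = 3 per group), the smallest the design allows, with an adjusted p of 0.625 over the genes tested. In B cells, which can also express Cd44 and Cd69, the shares were 6.90% and 15.5%, and for Il7r 0.55%. Without thinning, the groups did not overlap for Pdcd1 alone, and summed levels of Cd44 differed by -0.03 ± 0.28 (log2; edgeR adjusted p = 0.994).

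The genes with the largest rises by the rule for named genes were Hist1h2ap, Fcgr2b, Srebf2, Adgrl1 and Gm26917. None passed the adjusted test. Srebf2, the master regulator of cholesterol synthesis, was at 13.5, 25.4 and 32.6 CPM in the vehicle libraries and at 80.7, 65.3 and 85.9 CPM in the ginkgetin libraries (1.77 ± 0.35, edgeR adjusted p = 0.234, falling to 0.0423 when the barcode set was a block). In CD8 cells it was at 14.2, 11.4 and 19.3 CPM against 36.9, 30.3 and 68.3 CPM, also without overlap. Hist1h2ap, a replication-dependent histone of a family of near-identical copies whose reads may be split, was at 0, 12.7 and 22.8 CPM against 163, 163 and 28.6 CPM (3.40 ± 0.88), and 8 of 9 tested cell cycle genes had a positive difference with 0 at an unadjusted p under 0.05. Gm26917 and Adgrl1 differed by 1.64 ± 0.60 and 1.68 ± 0.51. Fcgr2b, an Fc receptor abundant in liver endothelial and myeloid cells, was at 13.5, 8.48 and 19.6 CPM against 37.8, 134 and 27.4 CPM.

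Beside Hspa1a, Hspa1b, Pdcd1, Tnfrsf4 and Tnfsf8, DESeq2 called Rgs16, Capg and Crem, which are named here after their values were seen. Crem, a cyclic AMP responsive transcription factor, was at 112, 119 and 45.7 CPM against 20.2, 13.1 and 13.7 CPM. Rgs16, a regulator of G protein signalling that T cells induce on activation, was at 26.9, 80.5 and 42.4 CPM against 1.26, 6.53 and 3.74 CPM. Capg, an actin-capping protein also abundant in macrophages, was at 335, 114 and 282 CPM against 26.5, 58.7 and 43.6 CPM. With the barcode set as block all 8 were called, as were Cd63, Apoe, Spry1, Cd5l, Nt5e, Jun, Serpina3g and Ubb, all lower.

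Transcripts of other liver cells moved with the groups. The macrophage list summed to 7277, 1530 and 1918 CPM in CD4 cells of the vehicle libraries and to 695, 858 and 305 CPM in those of the ginkgetin libraries, all 7 tested members had a negative difference, and in vehicle library 1 a single cell held 1702 of its 3784 macrophage UMIs. Apoe was at 3661, 852 and 1380 CPM against 132, 447 and 78.4 CPM and Cd63 at 215, 21.2 and 34.3 CPM against 7.57, 6.53 and 1.25 CPM. The hepatocyte list summed to 277, 763 and 1419 CPM against 29.0, 535 and 71.0 CPM, again with all 7 tested members lower. The endothelial list summed to 67.3, 80.5 and 287 CPM against 392, 1344 and 194 CPM, with all 8 tested members higher. Per library, 0 to 2 members of these 3 lists were at 0. The stellate cell and cholangiocyte list summed to 287, 170 and 1039 CPM against 56.8, 131 and 42.3 CPM, without overlap, with 3 to 5 of 10 members at 0 in a library and 1 tested. The B and plasma cell list summed to 30.8, 50.9 and 22.8 CPM against 88.3, 470 and 17.4 CPM, with 1 to 4 of the 6 members with UMIs in both barcode sets at 0. The part of these cells in the values of Apoe, Cd63, Cd5l, Capg and Fcgr2b was not tested beyond 1 fit. It left out cells with at least 1% of UMIs from the macrophage, hepatocyte, endothelial and B cell markers. In that fit Hspa1a was the only gene called (-4.41, edgeR adjusted p = 0.0255).

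**Figure D3:**
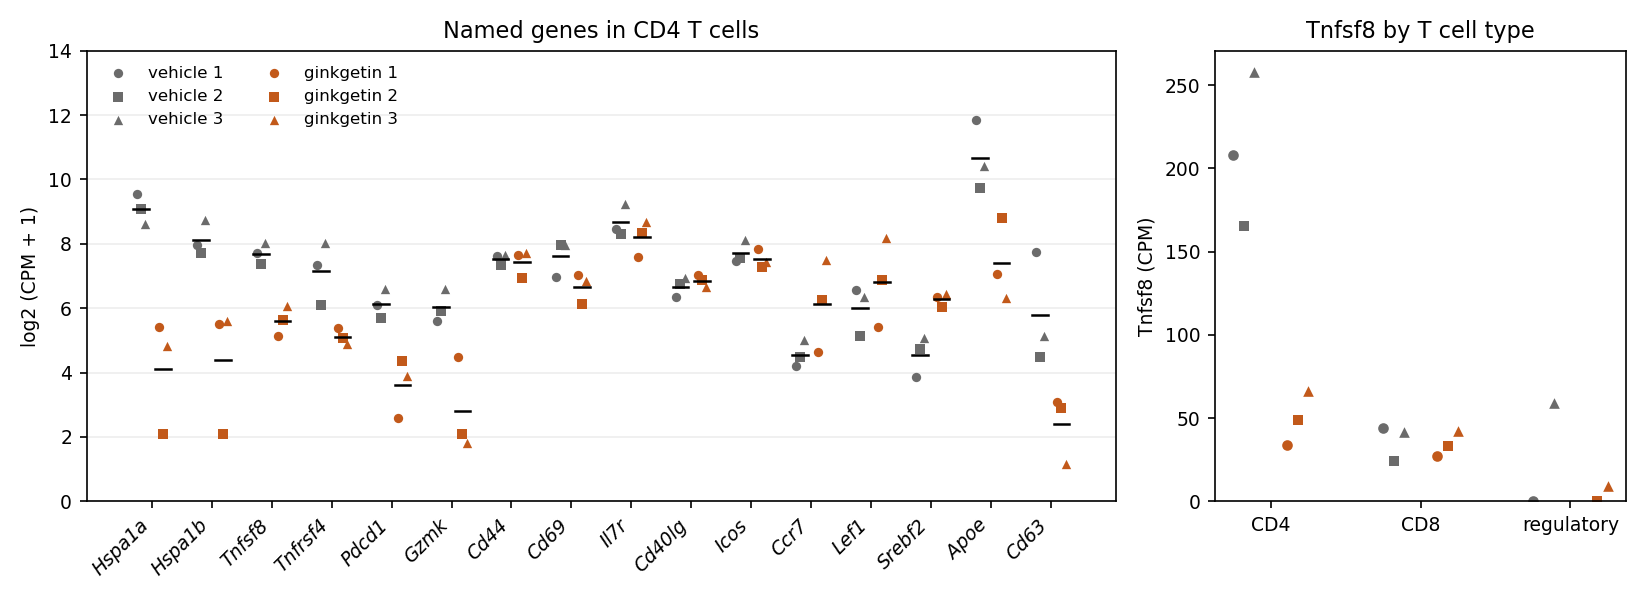
Left, level of 16 genes in CD4 cells as log2 (CPM + 1), 1 point per library, vehicle in grey and ginkgetin in orange, with a bar for the mean of 3. Right, Tnfsf8 in CPM in CD4, CD8 and regulatory T cells. Hspa1a, Hspa1b, Tnfsf8 and Pdcd1 separate the groups in CD4 cells, Cd40lg and Icos do not, and Tnfsf8 lies between 23.9 and 43.9 CPM in CD8 cells of both groups.

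In the helper lists 0 genes were called between the groups. The Th1 list had 12 tested members with 0 at an unadjusted p under 0.05 (median -0.09), the Th2 list 5 with 0 (median 0.08), the Th17 list 3 with 0 (median -0.0036), and the follicular helper list 4 with 1, Izumo1r (median -0.23). All 4 tested members of the follicular helper list were below 0, and the list summed to 600, 640 and 532 CPM in the vehicle libraries and to 401, 398 and 384 CPM in the ginkgetin libraries, without overlap. Izumo1r, whose levels are given above, is part of this sum. The fall was not particular to CD4 cells: in CD8 cells the list summed to 351, 348 and 293 CPM against 189, 174 and 197 CPM, also without overlap. Among all genes tested in CD4 cells, 12.8% had levels that did not overlap between the groups. In CD4 cells the summed Th1, Th2 and Th17 lists overlapped between the groups. T cell receptor signalling genes had a median of 0.15 over 14 tested, and the interferon-stimulated list one of -0.34 over 9. Among the other fixed genes, Icos differed by -0.12 ± 0.30, Cxcr6 by 0.08 ± 0.35, Ifng by -0.63 ± 0.40, Ccl5 by -0.03 ± 0.54 and Nkg7 by -0.13 ± 0.36, with edgeR adjusted p-values of 0.966, 0.985, 0.778, 0.997 and 0.970. Tcf7, Lef1 and S1pr1, of naive and recirculating cells, differed by 0.46 ± 0.41, 1.05 ± 0.56 and 0.85 ± 0.47, and Klf2 by -0.23 ± 0.50. Cd69, an early activation receptor, differed by -0.92 ± 0.35, Rgs1 by -0.78 ± 0.35, Cxcr3 by -0.43 ± 0.29, Il7r by -0.42 ± 0.34, Lag3 by -1.80 ± 1.04, Tbx21 by 0.73 ± 0.44 and Gata3 by 0.18 ± 0.30, with 0 of them called.

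**Figure D4:**
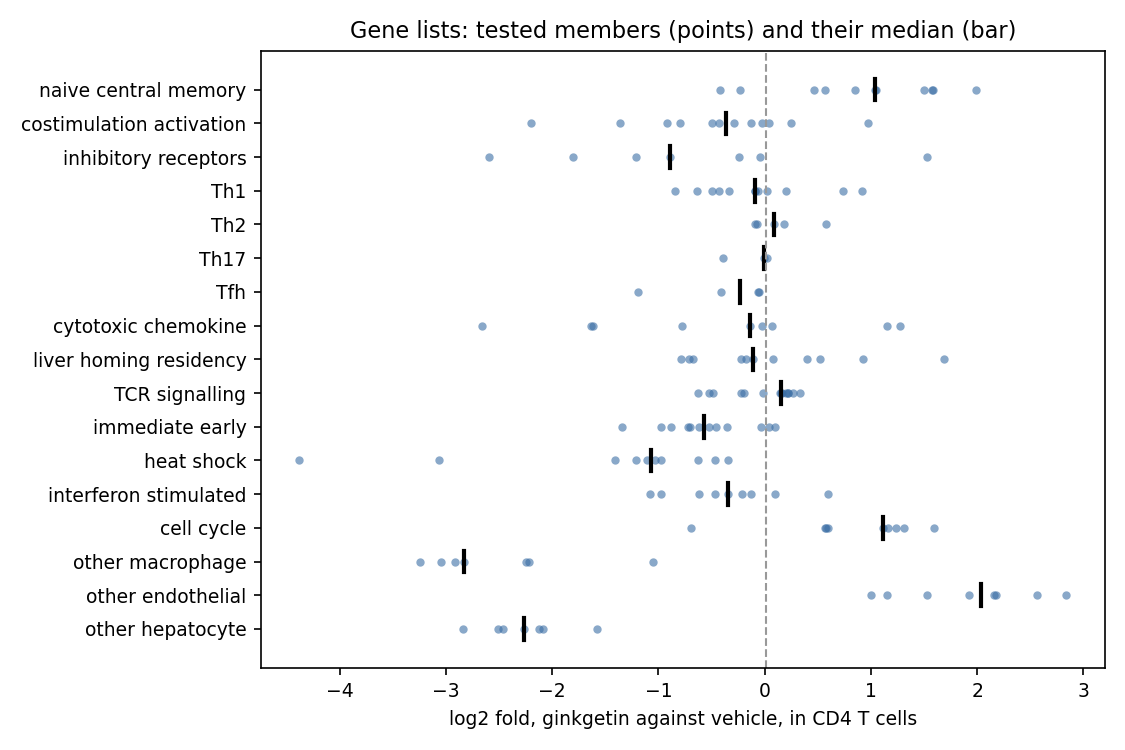
log2 difference between ginkgetin and vehicle in CD4 cells for the tested members of 17 gene lists (points) and their median (bar); the dashed line is the median of all 5496 genes tested (0.02). The heat shock, macrophage and hepatocyte lists lie to the left and the naive, cell cycle and endothelial lists to the right, with no gene called in any of them.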

How the data were processed

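Single-cell RNA sequencing (10x Genomics Chromium) of liver non-parenchymal cells was used from 3 vehicle and 3 ginkgetin libraries. The values are UMI counts per gene and cell barcode, which the authors deposited without normalization. The submitters' processing notes name GRCm38 and mm10, and the aligner and cell caller are not given in the sources used here. The tables held 13128697 to 61796882 UMIs per library. Depth differs between libraries, so shares of cells with a UMI were compared after thinning to 1000 UMIs, with some unthinned shares given beside them, and intervals cover counting error only.

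Cells with fewer than 5000 genes and less than 5% mitochondrial UMIs were kept, no doublet caller was run, and the gate's limit on Cd79a and the exclusion of Cd8a and Cd8b1 UMIs removed mixed cells in part. Regulatory T cells had at least 1 Foxp3 UMI, CD8 cells at least 1 Cd8a or Cd8b1 UMI and none of Cd4. Counts were summed per library and type, over libraries with at least 10 such cells, and tested with edgeR 4.0.16 (quasi-likelihood, TMM, filterByExpr) and limma 3.58.1 in R 4.3.3, with library as block between types. Called genes had an adjusted p (Benjamini-Hochberg) under 0.05 and a fold over 2. DESeq2 1.42.0 was an alternative. Shares were compared by exact permutation tests (scipy 1.17.1) with the library as the unit. Python 3.11.15, numpy 2.4.6, pandas 2.3.3 and matplotlib 3.10.9 were also used. All columns of the tables were used (0 left out).

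Named genes were 26 fixed genes, and for each comparison the genes with the largest differences: 5 each way between the groups, at an unadjusted p under 0.05 without overlap since none was called, and 8 each way between types, with the same sign in every library, in all cases with a mean of at least 50 CPM in the higher side. Gate genes were left out. The members, the gate, the gene lists and this rule were chosen with earlier results of these data known. Values of 3 of the fixed or listed genes, 1 of them part of the definition of the naive-marker state, are not reported here.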

Additional observations from a re-analysis of the deposited data

Results flagged for a closer look

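Tnfsf8 was flagged because its treatment effect differed between CD4 and CD8 cells: the ginkgetin-minus-vehicle log2 difference in CD4 cells minus that in CD8 cells was -1.94 (edgeR adjusted p = 0.00422), with all 3 ginkgetin CD4 sums below all 3 vehicle CD4 sums. Leaving out 1 library at a time gave -2.10 to -1.84, and the gene was called each time. It was not called with cells limited to 250 to 5000 UMIs (-1.90) or in replicates 1 and 2 only (-2.04). Leaving out cells with 3 or more UMIs of other lineages left 1 vehicle library, and its value of -1.22 says nothing about the call.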

How the results depend on the processing

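The replicate numbers did not pair the samples: same-numbered libraries correlated at 0.238, 0.0993 and 0.535 in their deviations, and vehicle 2 correlated best with ginkgetin 1 (0.270). With the replicate block 20 genes were called between the groups, and with the barcode set as block 17, against 0 without a block. DESeq2 called 8, no gene filter 189, cells of 250 to 5000 UMIs 1, a Cd4 minimum of 2 UMIs 1, leaving out cells with 1% other-lineage UMIs 1, and leaving out cells with at least 3 such UMIs 4, with 0 to 2 when 1 library was left out (2 without vehicle 3). For CD4 against CD8 cells the 150 calls became 60 without cells with 3 other-lineage UMIs and 341 without a gene filter. For CD4 against regulatory T cells the 82 calls became 52 with DESeq2, 201 without a gene filter and 47 to 116 when 1 library was left out (47 without ginkgetin 3). Leaving out cells with 3 other-lineage UMIs left 3 libraries with at least 10 CD4 cells, only 1 of them vehicle (12 cells), so its values rest on that library and say nothing about stability, the comparison with regulatory T cells could not be fitted, and state shares could not be compared because vehicle 3 had 0 cells. In the test of effects that differ between CD4 and CD8 cells 0 genes were called with the UMI limits and in replicates 1 and 2, 4 without a cell filter, 8 without cells with 1% other-lineage UMIs, 88 without a gene filter, and 1 to 6 with 1 library left out. Of the fixed genes whose shares did not overlap, 4 became 1 without thinning and 5 to 9 with 1 library left out (9 without ginkgetin 1).

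Some differences that were not called changed sign. The share of kept cells differed by -1.89 points with the UMI limits and by -0.222 to 2.08 with 1 library left out, and the share of T cells by -1.14 without Klrb1c cells and -0.13 with a Cd4 minimum of 2 UMIs. The effector-marker share differed by -9.07 without thinning, -6.94 with the UMI limits, -8.29 without Klrb1c cells and -10.5 to 9.14 with 1 library left out. Between the groups, without cells with 3 other-lineage UMIs, log2 differences were 1.26 for Icos, 0.69 for Cd28, 0.22 for Cd44, 0.31 for Klf2, -0.14 for Cxcr6, 7.24 for Ifng, 2.13 for Ctla4, 0.71 for Ccl5, 0.21 for Nkg7 and 0.71 for Rgs1. With the UMI limits they were 0.11 for Klf2, 0.11 for Ccl5 and 0.0035 for Nkg7, with a Cd4 minimum of 2 UMIs 0.17 for Cd44 and -0.11 for Cxcr6, without Klrb1c cells 0.27 for Klf2 and -0.56 for Cxcr6, and without cells with 1% other-lineage UMIs -0.0026 for Cxcr6. In replicates 1 and 2 they were 0.20 for Icos, -0.093 for Tcf7 and 0.27 for Ccl5. With 1 library left out the range was -0.36 to 0.049 for Icos, -0.19 to 0.13 for Cd44, -0.10 to 0.80 for Tcf7, -0.59 to 0.20 for Klf2, -0.16 to 0.44 for Cxcr6, -0.65 to 0.40 for Ccl5 and -0.30 to 0.20 for Nkg7. Between CD4 and CD8 cells the UMI limits gave 0.19 for Ccr7 and 0.34 for Klf2, and leaving out cells with 3 other-lineage UMIs 0.065 for Klf2. Lef1 was at -0.011 without a cell filter, -0.24 with the Cd4 minimum, -0.0053 without a gene filter and -0.029 in replicates 1 and 2, with -0.10 to 0.18 over libraries left out. Cxcr6 was at -0.011 without Klrb1c cells, Pdcd1 at 0.077 with the Cd4 minimum, Ifng at 0.016 with the Cd4 minimum, 0.042 in replicates 1 and 2 and -0.21 to 0.11 over libraries left out, and Rgs1 at 0.10 in replicates 1 and 2 and -0.29 to 0.10. Against regulatory T cells Ccr7 was at -0.27 with the UMI limits, -0.071 with DESeq2 and -0.22 to 0.32 over libraries left out, Klf2 at -0.0094 to 0.39 over libraries left out, and S1pr1 at 0.084 without a cell filter. The cause of these changes was not tested. The alternatives without Klrb1c cells, without cells with 1% other-lineage UMIs, and for CD4 against CD8 cells replicates 1 and 2 only, for the shares of kept and T cells a Cd4 minimum of 2 UMIs, and for the fixed-gene shares no thinning and libraries left out, were chosen after seeing the data. Depth limits Il21, with 49 UMIs over the 6 CD4 sums, the regulatory T cells are limited by their number (7 to 51 per library), and 3 libraries a group limit every exact test to a p of 0.10 or more.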
